A study of Drosophila melanogaster with 2 samples.

Results

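The tetraspanin genes of the fly are taken here as the protein-coding genes whose symbol is Tsp followed by a digit, and the deposited peak lists were read at the promoters of these genes. There were 34 such genes among 13945 protein-coding genes of Drosophila melanogaster. Each was defined as bound or unbound by the measured values themselves: a bound gene had a summit of the authors' reproducible peak list within 500 bp of a transcription start site (TSS). By that rule 12 of the 34 genes were bound and 22 were not. Because bound status was selected on the peak calls, all counts and signals of the bound genes are given as a description, with no test.

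The study mapped binding of Asciz, also named CG14962, by chromatin immunoprecipitation and sequencing in whole embryos. The embryos were 0 to 24 h old and held both sexes. They came from a transgenic line that makes Asciz with eGFP at its C terminus, and an antibody to GFP pulled down the tagged protein. The 2 libraries, named biological replicates 1 and 3, make up 1 group, with chromatin sonicated to between 200 and 800 bp. Both libraries came from the same line per the labels, from separate biosamples, so the values describe the tagged protein of that line in a mixture of embryonic tissues and stages. No untagged group is among the samples used here, and a control alignment named in the deposited file listings is not analysed here.

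Tetraspanins are small proteins that cross the cell membrane several times and gather other membrane proteins, such as integrins and ADAM proteases, into patches of membrane. In the fly they are known from cell signalling, from epithelial junctions, from synapse formation and from the turnover of membrane proteins in lysosomes, and many of the genes stand side by side in a large cluster. Asciz belongs to the zinc finger transcription factors and is known to act on ctp, which encodes dynein light chain LC8. A peak summit marks where the protein, or a complex that holds it, was pulled down most. It does not show that the nearest gene responds.

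The DNA under 5 of the bound summits is shown because these members span the strongest and the weakest signals and the nearest and some of the farthest summit positions. Each run is 101 bp of dm6 centred on the summit and read 5′ to 3′ on the strand of the gene. It was taken from the release 6 assembly. Capitals mark runs of at least 6 A or T bases. The windows are X:6074996-6075096 for Tsp5D (minus strand), 2L:8937074-8937174 for Tsp29Fb (plus strand), 3L:17896121-17896221 for Tsp74F (minus strand), 3R:26964777-26964877 for Tsp97E (minus strand) and 3R:10868585-10868685 for Tsp86D (plus strand).
Tsp5D: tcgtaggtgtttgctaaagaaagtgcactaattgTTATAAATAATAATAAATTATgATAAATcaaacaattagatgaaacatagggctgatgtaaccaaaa
Tsp29Fb: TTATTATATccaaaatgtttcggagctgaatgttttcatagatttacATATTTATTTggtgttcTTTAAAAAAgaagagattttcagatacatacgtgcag
Tsp74F: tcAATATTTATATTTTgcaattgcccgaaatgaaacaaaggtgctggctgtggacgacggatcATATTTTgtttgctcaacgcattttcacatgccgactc
Tsp97E: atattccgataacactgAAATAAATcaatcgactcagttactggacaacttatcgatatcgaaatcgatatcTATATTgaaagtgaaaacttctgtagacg
Tsp86D: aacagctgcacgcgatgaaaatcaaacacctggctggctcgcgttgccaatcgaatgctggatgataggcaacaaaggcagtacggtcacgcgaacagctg
The Tsp5D window, under the highest signal of the family, holds an A/T run of 21 bases. The Tsp86D window, under the lowest, holds no run of 6. Between these extremes run length did not keep the order of signal. The longest run was 10 bases at Tsp42El (signal 663), 6 at Tsp42Eg (355), 14 at Tsp74F (237) and 13 at Tsp42Eo (182).

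The bound share of the tetraspanin genes, 12 of 34 or 35.3%, stood beside 13.7% for all protein-coding genes (1916 of 13945). All 5085 regions of the reproducible list were the regions of highest signal in the authors' pooled list, in which the lowest kept signal was 127, the median 205 and the highest 26348 (at ctp). The 12 bound members had signals from 128 to 759, with a median of 225, and the other 1904 bound protein-coding genes had a median of 239. The quartiles were 147 and 349 for the members and 169 and 418 for the other bound genes, so the signals at tetraspanin promoters lay inside the usual range of this list. Of the 12 members, 7 were above the median of the whole list. The signal was set by the authors for each region, its scale differs from list to list, and the number of reads behind it is unknown, so no counting error can be given.

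**Figure D1:**
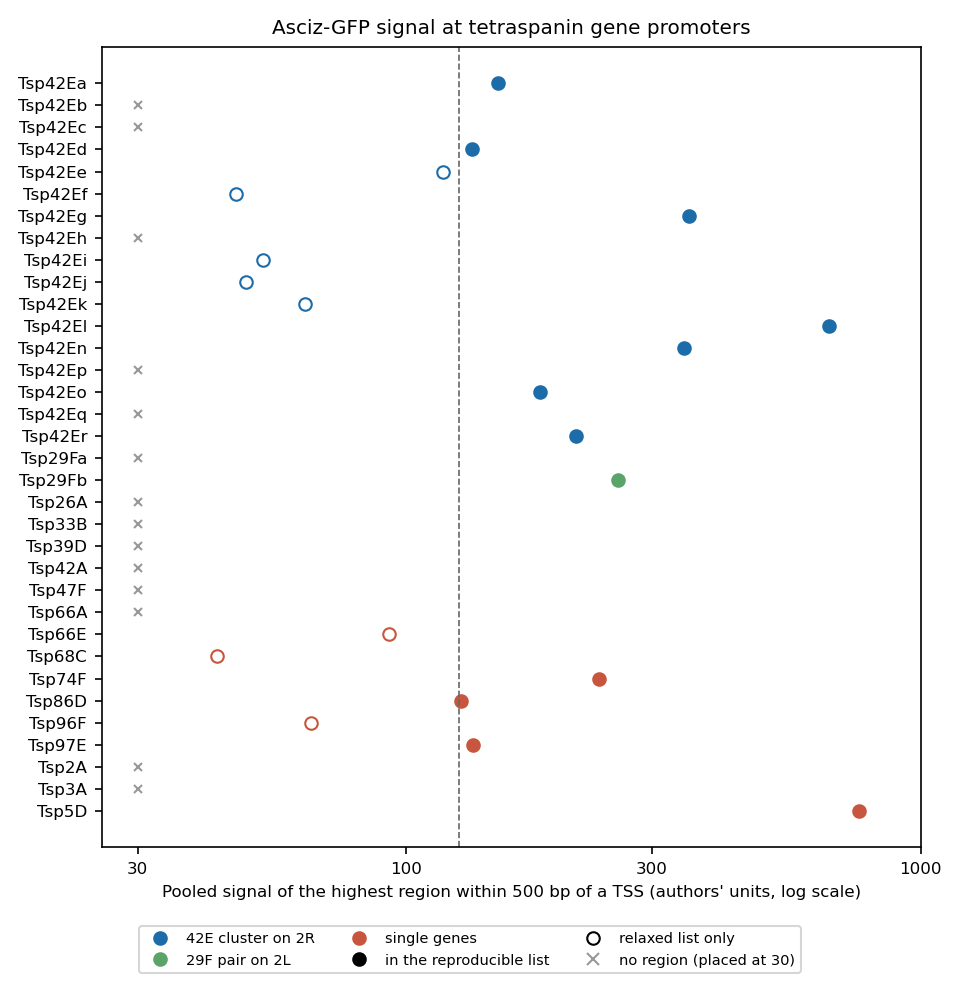
Pooled signal (authors' units, log scale) of the highest region with a summit within 500 bp of a TSS of each tetraspanin gene. Filled points are the 12 genes in the reproducible list, from 128 to 759; open points are the 8 genes with a region in the relaxed pooled list alone; crosses at the left edge are the 14 genes with neither, and the dashed line is the lowest signal of the reproducible list, 127.

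The share with a reproducible summit was higher for the tetraspanin genes than for the other protein-coding genes at every distance examined. Within 100 bp of a TSS it was 8.82% of the members (3 genes) and 3.91% of the other genes. Within 300 bp it was 29.4% (10 genes) and 11.1%. All 12 bound members were already counted at 400 bp, where the other genes stood at 12.5%. Within 2000 bp the shares were 44.1% (15 genes) and 22.1%, and within 10000 bp they were 79.4% (27 genes) and 51.9%. Genes of 1 cluster share their surroundings, so these counts are not independent of each other.

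**Figure D2:**
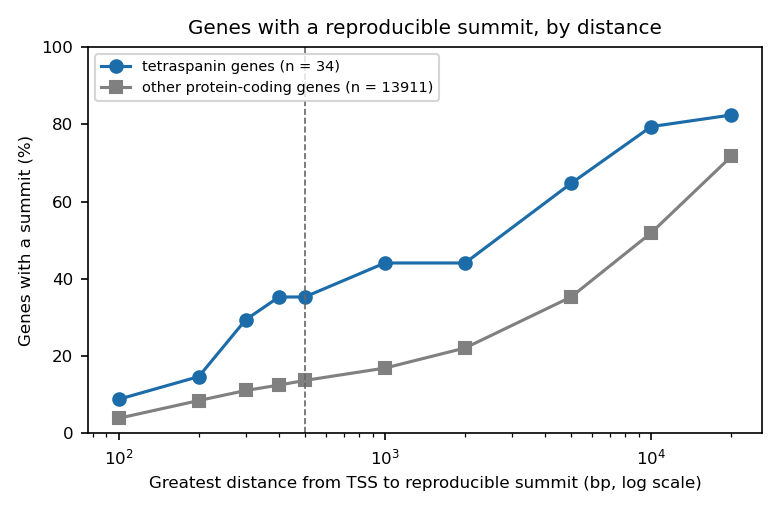
Share of genes (%) with a reproducible summit within a given distance of a TSS (bp, log scale), for the 34 tetraspanin genes (blue circles) and the other 13911 protein-coding genes (grey squares). The dashed line marks 500 bp, where the shares were 35.3% and 13.7%.

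Among the 15 single genes, those with no other tetraspanin TSS within 10000 bp on the same arm, 4 were bound and 11 were not (26.7% bound). Tsp5D (FBgn0029837, X:6069131-6074857, minus strand) had the highest signal of the whole family. Its region at X:6074893-6075163 had a signal of 759 and ranked 208 of 5085, with the summit in intergenic DNA 189 bp upstream of the TSS. The overlapping region had a signal of 286 in replicate 1 and 467 in replicate 3. To set the libraries side by side, each value was scaled to the median of its own library over the reproducible list, 91.7 for replicate 1 and 124 for replicate 3. On this relative scale Tsp5D stood at 3.12 (replicate 1) and 3.78 (replicate 3), with a mean of 3.45 ± 0.461 (SD, n = 2), above the median peak in both.

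Tsp74F (FBgn0036769, 3L:17891820-17895862, minus strand) came next among the single genes. Its intergenic summit lay 309 bp upstream of the TSS in a region at 3L:17895959-17896382, with a signal of 237 (rank 2034). The relative signal was 1.01 (replicate 1) and 1.21 (replicate 3), with a mean of 1.11 ± 0.142 (SD, n = 2), close to the median peak in both libraries.

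Tsp97E (FBgn0039465, 3R:26961064-26964817, minus strand) carried its promoter summit 10 bp upstream of the TSS, the shortest distance of the family. The region at 3R:26964615-26965038 had a signal of 135 (rank 4675) and relative signals of 0.575 (replicate 1) and 0.557 (replicate 3), with a mean of 0.566 ± 0.013 (SD, n = 2). The 2 libraries differed least here, and the mean was the lowest of the 12. A stronger summit lay inside the gene: in the intron 902 bp downstream of the TSS the signal was 339 (rank 1135), and a weaker summit at 703 bp had 130 (rank 4944). The strongest Asciz-GFP signal at Tsp97E was therefore intronic and outside the promoter window.

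Tsp86D, Tsp3A and Tsp26A encode the tetraspanins of the TspanC8 type, which escort the protease Kuzbanian (ADAM10) to the cell surface and promote Notch signalling. Tsp86D (FBgn0037848, 3R:10868708-10870555, plus strand) was bound, at the lowest signal of the 12 members. Its summit lay 73 bp upstream of the TSS in a region at 3R:10868423-10868846 with a signal of 128 (rank 5026). The relative signal was 0.633 (replicate 1) and 0.539 (replicate 3), with a mean of 0.586 ± 0.067 (SD, n = 2). The same summit was 7 bp downstream of the TSS of SelR, a methionine sulfoxide reductase gene on the opposite strand, in a 5′ untranslated exon. Tsp86D was the only bound member whose own TSS was not the nearest, and the signal cannot be given to 1 of these divergent genes.

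Tsp3A (FBgn0040334, X:2617758-2619738, minus strand) was unbound by the rule, with the nearest reproducible summit 25807 bp downstream of its TSS. Replicate 3 alone had a region at this promoter, at X:2619706-2620115, with its summit 173 bp upstream of the TSS. Its signal there was 198 and its rank 1139 of 30000 regions in that library. Neither replicate 1 nor the pooled list had a region within 500 bp. Tsp26A (FBgn0031760, 2L:6000228-6003738, plus strand) had no region within 500 bp in any list. The nearest reproducible summit, 2483 bp upstream, was at the promoter of Kdm5, a histone demethylase gene, with a signal of 350 (rank 1076). That Kdm5 region reached 1.70 on the relative scale in replicate 3, with no overlapping region in replicate 1. Whether regions were filtered differently from list to list is not known here, which bears on the calls at Tsp3A and Kdm5. Thus 1 of the 3 TspanC8 genes was bound, at a weak signal shared with a neighbour.

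Tsp2A (FBgn0024361, X:1346553-1348143, plus strand) encodes a component of the smooth septate junctions that seal the gut epithelium. It had no region within 500 bp of a TSS in any of the 4 lists, and the nearest reproducible summit was 40298 bp away, the greatest distance of the family. Tsp33B, Tsp42A and Tsp47F were likewise without a region in any list, with the nearest reproducible summits 24212, 12640 and 9338 bp upstream.

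Other unbound single genes had binding inside the gene or weak regions at the promoter. Tsp96F (3R:25872900-25881427, minus strand) had intronic summits 967 bp and 1823 bp downstream of its TSS, with signals of 178 (rank 3197) and 306 (rank 1330). At its TSS itself the pooled relaxed list had a signal of 65.1, 38 bp downstream. Replicate 3 had a region of signal 77.2 (rank 5178) with its summit 54 bp downstream, and replicate 1 had none within 500 bp. In replicate 3 that signal was above those of bound Tsp42Ea (64.1), Tsp86D (66.5) and Tsp97E (68.8). It was below those of all the other bound members. Tsp66E (3L:8912499-8932065, plus strand), the longest gene of the family, had intronic summits 8342 bp and 13330 bp downstream of its TSS, with signals of 234 (rank 2070) and 423 (rank 767). The TSS nearest to these Tsp66E summits was that of lncRNA:CR43970, 5651 bp and 10639 bp away. The Tsp66E promoter had a pooled region of signal 92.5 with a summit 41 bp downstream of the TSS. That region was present in replicate 1 (27.8) and in replicate 3 (66.4), but below the reproducible list. So Tsp96F and Tsp66E were both called unbound by the promoter rule although reproducible summits lay within them. Tsp68C had a relaxed region of signal 42.7 in the pooled list and 22.5 in replicate 3, Tsp39D a region of signal 25.6 in replicate 1 alone, and Tsp66A a region of signal 23.8 in replicate 3 alone. The nearest reproducible summits were 22041 bp from Tsp68C, 34343 bp from Tsp39D and 32079 bp from Tsp66A.

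The clustered genes, those with the TSS of another member within 10000 bp on the same arm, numbered 19, and 8 of them were bound (42.1%) while 11 were not. They formed a pair at 29F on 2L and a run of 17 genes at 42E on 2R. In the pair, Tsp29Fb (FBgn0032075, 2L:8937390-8939743, plus strand) was bound and its neighbour Tsp29Fa, on the same strand just upstream, was not. The Tsp29Fb summit lay 266 bp upstream of the TSS in the DNA between the 2 genes, at 2L:8936912-8937335, with a signal of 258 (rank 1761). Relative signals were 1.39 (replicate 1) and 1.08 (replicate 3), with a mean of 1.23 ± 0.214 (SD, n = 2). An intronic summit of Tsp29Fb, 803 bp downstream of the TSS, had a similar signal of 267 (rank 1656). At Tsp29Fa the nearest reproducible summit was this promoter summit of Tsp29Fb, 2300 bp downstream of the Tsp29Fa TSS, and the only region within 500 bp was in replicate 1, with a signal of 23.7.

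The 42E cluster spans 2R:6992676-7066113, or 73.4 kb, with 14 members on the plus strand and 3 on the minus strand. Of its 17 members, 7 were bound (41.2%) and 10 were not. Bound and unbound members were interspersed along the cluster: Tsp42Ea, Tsp42Ed, Tsp42Eg, Tsp42El, Tsp42En, Tsp42Eo and Tsp42Er had promoter summits, and Tsp42Eb, Tsp42Ec, Tsp42Ee, Tsp42Ef, Tsp42Eh, Tsp42Ei, Tsp42Ej, Tsp42Ek, Tsp42Ep and Tsp42Eq did not. On the plus strand 6 of 14 were bound and on the minus strand 1 of 3. The interval held 9 reproducible summits, 12.3 per 100 kb, while the whole of 2R held 893, or 3.53 per 100 kb. Neighbouring summits were 1972 to 18769 bp apart, so the summits did not form a single block. Beside the 17 members the interval holds 7 other protein-coding genes, and summit density was not compared with other intervals of the same gene density. The interval was drawn from its first to its last member, Tsp42Ea and Tsp42Er, which were both bound. The value for 2R was taken over the whole arm.

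**Figure D3:**
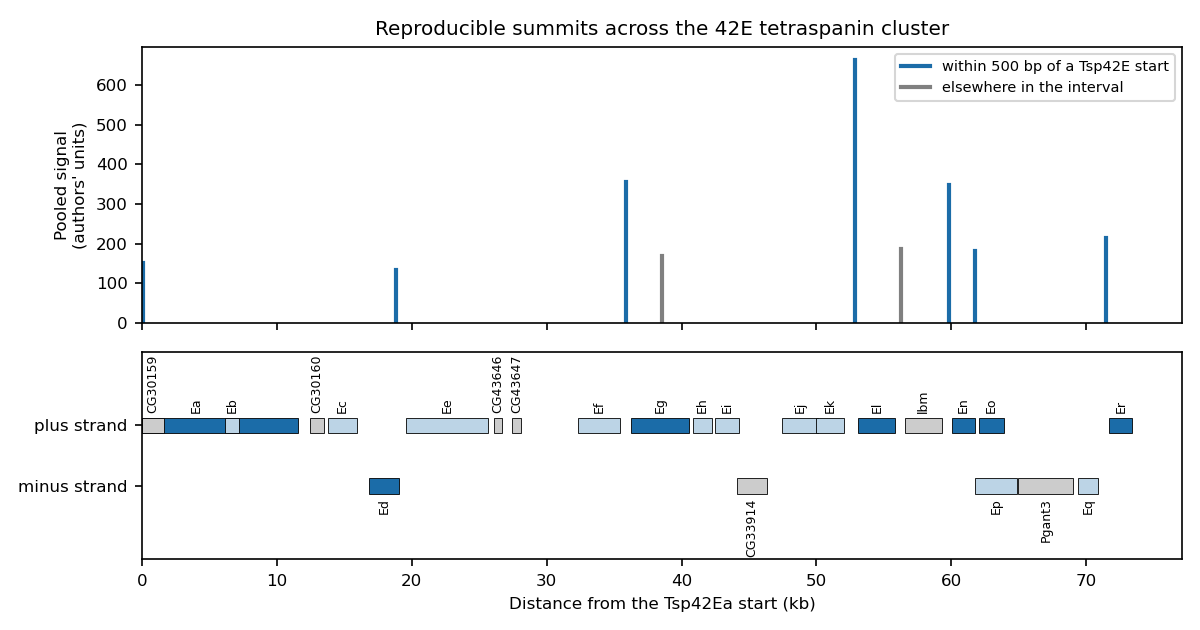
Reproducible summits (top, pooled signal in authors' units) and protein-coding genes (bottom, by strand) along the 42E cluster, by distance from the Tsp42Ea start in kb; gene names are given without Tsp42. Dark blue genes are the 7 bound members, light blue the 10 unbound ones and grey the other genes; blue bars are the 7 summits within 500 bp of a member's start and grey bars the other 2, with the highest bar, 663, at Tsp42El.

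Tsp42El (FBgn0033134, 2R:7045769-7048538, plus strand) had the highest signal of the cluster and ranked below Tsp5D alone in the family. Its region at 2R:7045396-7045719 had a signal of 663 (rank 286), with an intergenic summit 229 bp upstream of the TSS. The signal was 239 in replicate 1 and 412 in replicate 3, or 2.61 and 3.33 on the relative scale (mean 2.97 ± 0.515, SD, n = 2). Both libraries placed this promoter well above their median peak.

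Tsp42Eg and Tsp42En had the next signals. Tsp42Eg (FBgn0033128, 2R:7028911-7033233, plus strand) had a narrow region of 106 bp at 2R:7028502-7028607, where the list's median width was 424 bp, with a signal of 355 (rank 1051) and a summit 320 bp upstream of the TSS. Its relative signal was 1.41 (replicate 1) and 1.80 (replicate 3), with a mean of 1.60 ± 0.277 (SD, n = 2). Tsp42En (FBgn0033135, 2R:7052747-7054399, plus strand) had a signal of 347 (rank 1094) at 2R:7052284-7052707, with a summit 251 bp upstream. There the order of the libraries was the other way, at 1.85 (replicate 1) and 1.47 (replicate 3), with a mean of 1.66 ± 0.269 (SD, n = 2). The difference between these 2 genes was smaller than the spread between libraries.

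Tsp42Er, Tsp42Eo, Tsp42Ea and Tsp42Ed were bound at lower signals. Tsp42Er (FBgn0033139, 2R:7064399-7066113, plus strand) had a signal of 213 (rank 2383) at 2R:7063951-7064374, with a summit 236 bp upstream and relative signals of 0.830 (replicate 1) and 1.15 (replicate 3), with a mean of 0.989 ± 0.225 (SD, n = 2). That summit lies between divergent genes and is 594 bp upstream of Tsp42Eq, which the window therefore left unbound. Tsp42Eo (FBgn0033136, 2R:7054717-7056576, plus strand) had a signal of 182 (rank 3080) at 2R:7054256-7054679, with a summit 249 bp upstream of its TSS. The site lay in a 3′ untranslated exon of Tsp42Ep, which overlaps Tsp42Eo on the opposite strand. Its relative signals were 0.893 (replicate 1) and 0.818 (replicate 3), with a mean of 0.856 ± 0.053 (SD, n = 2).

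Tsp42Ea and Tsp42Ed were the members with summits downstream of the TSS. Tsp42Ea (FBgn0029508, 2R:6992676-7004259, plus strand) had a signal of 151 (rank 4020) at 2R:6992559-6992982, with a summit 90 bp downstream in a 5′ untranslated exon. CG30159 starts beside it on the same strand, and the summit is as near to its TSS as to that of Tsp42Ea. The relative signals of this summit were 0.842 (replicate 1) and 0.519 (replicate 3), with a mean of 0.680 ± 0.229 (SD, n = 2). Tsp42Ed (FBgn0029507, 2R:7009498-7011739, minus strand) had a signal of 134 (rank 4716) at 2R:7011328-7011751, with a summit 199 bp downstream in its intron. Its relative signals were 0.422 (replicate 1) and 0.820 (replicate 3), with a mean of 0.621 ± 0.281 (SD, n = 2), the largest spread relative to the mean among the 12. In both genes the signal was below the median peak in each library.

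**Figure D4:**
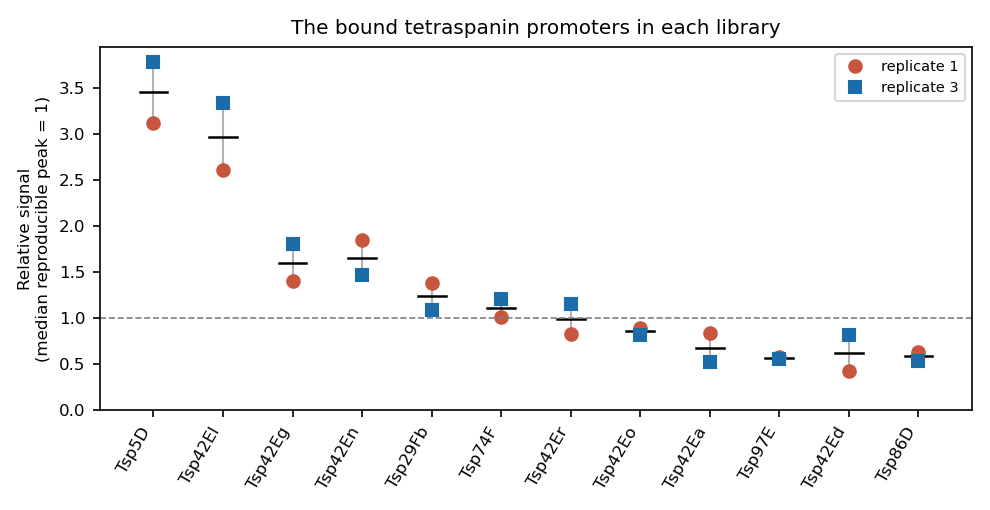
Relative signal (1 is the median reproducible peak of the library) of the 12 bound tetraspanin promoters in replicate 1 (red circles) and replicate 3 (blue squares), with the mean as a black bar and the genes ordered by pooled signal. Tsp5D and Tsp42El stand at or above 2.61 in both libraries, and Tsp97E, Tsp42Ed and Tsp86D below 0.83 in both.

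Over the 12 bound members, replicate 3 gave the higher relative signal at 6 and replicate 1 at the other 6. The medians were 0.951 in replicate 1 and 1.12 in replicate 3. Tsp5D and Tsp42El had the highest relative signals in both libraries, and none of the other 10 exceeded 1.85 in either library. The lower members overlapped: the order of Tsp42Ea, Tsp42Ed, Tsp97E and Tsp86D changed between libraries.

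On the distance scale the bound member with the farthest summit was Tsp42Eg, 320 bp upstream, and the first beyond the window were Tsp42Eq at 594 bp upstream, Tsp42Ee at 714 bp upstream and Tsp96F at 967 bp downstream. On the signal scale the last member inside was Tsp86D at 128 (rank 5026), and the first outside was Tsp42Ee, whose pooled region 94 bp upstream of its TSS had 118 (rank 5644). Tsp66E followed at 92.5 (rank 7997). Of the 22 unbound members, 3 had a reproducible summit within 2 kb and 7 had none within 10 kb.

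Among the reproducible summits within 10 kb of a member, the following had their nearest TSS in a gene outside the family. Which gene they act on was not tested. Near Tsp86D, summits lay 285 bp upstream of Fdh (signal 254, rank 1798) and 389 bp upstream of Sodh2 (387, rank 898), both stronger than the summit at Tsp86D itself. Near Tsp96F, 2 summits lay within SppL, with signals of 279 (rank 1536) and 209 (rank 2465). Near Tsp5D a summit stood in an intron of CG4666, 2314 bp upstream of the Tsp5D TSS (155, rank 3849), and another 283 bp upstream of CG5928 (146, rank 4227). Near Tsp47F a summit stood 264 bp downstream of the CG30022 start (151, rank 4032). On either side of the 42E cluster, a summit in an intron shared by CG30156 and vimar had a signal of 215 (rank 2350), 8018 bp upstream of Tsp42Ea. A summit 83 bp upstream of a threonine tRNA gene had 171 (rank 3378), 6517 bp downstream of the Tsp42Er start.

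The relaxed lists hold 30000 regions each, peaks and background together, so a region there met a less strict criterion than a region of the reproducible list. A summit within 500 bp was found for 20 of 34 members in the pooled relaxed list, beside 35.2% of all protein-coding genes. It was found for 18 of 34 members in the replicate 1 list, beside 32.7% of all protein-coding genes, and for 21 of 34 in the replicate 3 list, beside 41.4%. All 12 bound members were in all 3 relaxed lists. In the pooled list this follows by construction, because the regions of the reproducible list are the highest regions of that list. The reproducible list also derives from both replicate lists, so their regions at these 12 genes are no separate support. The counts over 34 members include these 12. Of the 22 unbound members, 8 had a pooled region, beside 24.9% of all unbound protein-coding genes. In the single libraries 6 of the 22 had a replicate 1 region, beside 23.5%, and 9 a replicate 3 region, beside 32.2%. Tsp42Ek and Tsp66E had a region in both replicates, and 9 members had none in any list: Tsp26A, Tsp33B, Tsp42A, Tsp42Eb, Tsp42Ec, Tsp42Eh, Tsp42Ep, Tsp47F and Tsp2A.

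Within the 42E cluster 6 of the 10 unbound members had a region in a relaxed list. Over the family it was 13 of 22, beside 40.6% of all unbound protein-coding genes. Tsp42Ee had a pooled signal of 118, with 87.7 in replicate 3 and no region in replicate 1. Tsp42Ek had a pooled signal of 63.5 with a summit 59 bp upstream, and 31.1 in replicate 1 and 42.2 in replicate 3. Tsp42Ei had 52.5 in the pooled list at 494 bp upstream and 33.1 in replicate 1 alone. Tsp42Ej, known as sunglasses, a lysosomal tetraspanin that photoreceptors need to degrade rhodopsin, had 48.8 in the pooled list and 44.1 in replicate 3 alone. Tsp42Ef had 46.6 in the pooled list and 40.5 in replicate 3 alone. Tsp42Eq had a region in replicate 1 alone, of signal 59.3 with a summit 370 bp upstream of the TSS. Where the pooled list held a region it was below the lowest signal of the reproducible list. The replicate 3 region at Tsp42Ee (rank 4309) and the replicate 1 region at Tsp42Eq (rank 4622) were above those of some bound members in the same library, such as Tsp42Ea (64.1) in replicate 3 and Tsp42Ed (38.7) in replicate 1.

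With each library's own top 5085 regions in place of the reproducible list, 11 of 34 members were bound in replicate 1, beside 12.8% of all protein-coding genes, and 11 of 34 in replicate 3, beside 15.2%. The replicate 1 set shared 10 members with the 12, lacked Tsp42Ed and Tsp97E and added Tsp42Eq. The replicate 3 set shared 9, lacked Tsp42Ea, Tsp86D and Tsp97E and added Tsp3A and Tsp42Ee. A summit among the top regions of both libraries was found for 8 of 34 members, beside 10% of all protein-coding genes: Tsp5D, Tsp74F, Tsp29Fb, Tsp42Eg, Tsp42El, Tsp42En, Tsp42Eo and Tsp42Er.

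Summits of the bound members lay mostly upstream of the TSS. The median position over the 12 members was −232.5 bp (negative is upstream), with quartiles at −254.8 and −57.25 bp and a range from −320 to 199 bp. For the other 1904 bound protein-coding genes the median was −150 bp, with quartiles at −257 and −52 bp. The summit was upstream at 10 of the 12 members (83.3%) and at 82.1% of the other bound genes, a near equal share. The 7 bound genes of the 42E cluster ran from −320 to 199 bp, with a median of −236 bp, and the 4 single bound genes from −309 to −10 bp, with a median of −131 bp. Median signals were 213 for the 7 bound members of the cluster and 186 for the 4 single ones, with overlapping ranges.

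The DNA between a TSS and the next gene upstream had a median of 828.5 bp for the bound members and 347.5 bp for the unbound ones. Within the 42E cluster the medians were 828 bp for the 7 bound members and 313.5 bp for the 10 unbound ones. Among the single genes the medians were closer, 760 bp for the 4 bound and 638 bp for the 11 unbound, and the longest gap was in an unbound gene (6900 bp, at Tsp66A). Over the family both ranges began at 0, since Tsp42Eo and some unbound members start inside another gene, and no test was made. Gaps were not measured for genes outside the family, so whether bound genes in general have longer ones is not known here.

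The sequence under the member summits was near the composition of the whole list. The A+T content of the 101 bp window had a median of 64.9% over the 12 members, from 46.5% at Tsp86D to 73.3% at Tsp5D, Tsp42El and Tsp42Eo, and 67.3% over all 5085 summits. The longest run of A or T had a median of 8 bases in the members and 10 in all summits, and the run of 21 at Tsp5D was the longest of the 12. The bound promoters did not share long stretches. Among the 66 pairs of 301-bp windows round the 12 summits the longest identical run was 12 bp, found between Tsp29Fb and Tsp74F and between Tsp29Fb and Tsp42Eg.

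Exact matches to 5 short motifs were searched, each on its own and on both strands, so that matches may overlap, in the 12 summit windows and in all 34 promoters (250 bp before to 50 bp after a TSS). TATAAA, the letters of the TATA box, was in 3 of the 12 windows (Tsp42Eo, Tsp74F and Tsp5D) and in 22.4% of all 5085 windows. TATCGATA, the DNA replication-related element, was in 1 window, that of Tsp97E, and in 0.944% of all windows. In promoters this element was in 3 of 34 members (Tsp39D, Tsp96F and Tsp97E) and in 9.37% of all protein-coding genes. GAGAG, the core bound by GAGA factor, was in 2 windows, those of Tsp42Ed and Tsp42Eo, and in 10.7% of all windows, and in 14 of 34 member promoters and 29.8% of all promoters. CACGTG, an E-box, was in the Tsp42Eg window and in 0.747% of all windows, and in 1 of 34 member promoters (Tsp29Fb) and 4.24% of all promoters. AATATTTA is the leading word of 8 bases at all summits of this list and so was picked from these data. It was in the Tsp74F window alone, against 6.51% of all windows. In promoters AATATTTA was in 0 of 34 members and in 1395 of all 13945 protein-coding genes. The letters TATAAA stood anywhere in the window in 9 of 34 member promoters and in 45.9% of all promoters, with no limit on their place relative to the TSS. Among the sequences printed above, TATCGATA lies within the Tsp97E run and AATATTTA within the capitals of the Tsp74F run.

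Genes of pathways linked to the tetraspanin roles named above were counted by the same promoter rule, for reference. Whether each product works with a tetraspanin was not tested. Of 9 ADAM10 and Notch pathway genes found in the annotation, 2 were bound. These were N, the Notch receptor, with a signal of 179 (rank 3168) at 440 bp upstream, and aph-1, a gamma-secretase subunit, with 407 (rank 824) at 358 bp upstream and nearer to Snx21. The protease gene kuz was not bound. Of 3 smooth septate junction genes (Ssk, mesh and hoka), the partners of Tsp2A, 0 were bound. Of 9 integrin and integrin adaptor genes, 2 were bound: scb, an alpha integrin, with 691 (rank 264), and if, another alpha integrin, with 156 (rank 3815). Of 8 genes of lysosome and endosome membranes, 2 were bound: Rab5, with 626 (rank 326), and Rab11, with 183 (rank 3050), both small GTPases of endosomal traffic. The shares in these lists are small counts beside the 13.7% of all protein-coding genes, and nothing particular to the lists is drawn from them.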

How the data were processed

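The values are dm6 peak lists in narrowPeak layout. Their signal column is the peak caller's value per region as deposited by the authors. Per the deposited file listings, the reproducible list, kept by the irreproducible discovery rate, derives from both replicate lists and the pooled relaxed list, and both replicate lists use the same control alignment. Aligner, peak caller and versions were not given in the sources used here. Labels call the libraries biological replicates 1 and 3. The −log10 columns and the dm3 lists were not used.

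Genes came from Ensembl release 115 restricted to 2L, 2R, 3L, 3R, 4 and X. Summits were taken from the deposited offsets, and coordinates are 1-based. For a replicate, the highest region overlapping a peak by at least 1 bp was taken. Relative signals, distances, gaps and motif matches were computed with Python 3.11.15, numpy 2.4.6, pandas 2.3.3 and matplotlib 3.10.9. The bound calls, summit distances and cluster assignment were tested on simulated data, and the relative signals, gaps and motif matches were not. Every member was named, with its summits within 10 kb or inside the gene where they bore on it, together with genes of 4 pathway lists. The members and lists were chosen with earlier results of these data known. With 1 group no condition was compared and no test was run. Alternatives were the window, the list, the library and the cluster gap.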

Additional observations from a re-analysis of the deposited data

How the results depend on the processing

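The main counts were 12 bound members, 8 of them clustered and 4 single, beside 13.69% of the other protein-coding genes, a median position of −232.5 bp and a median signal of 225.1. Over 14 alternatives, 46 values kept close to these, 23 moved and 0 reversed. The 0 carries little weight, since counts, shares and signals have no sign to reverse. It also does not cover the order of the clustered and single shares. Close means a count within 1.5 times, a share from 13.1% to 14.3% (the Wilson interval at 95%), a position within 29 bp or a signal within 25.4. With a window of 200 bp, 5 members were bound, beside 8.504% of the other genes, at a median of −10 bp and a signal of 135.0. They were 2 of 19 clustered and 3 of 15 single genes. The single genes thus had the larger share at 200 bp, and the clustered genes had it at 500 bp. The other genes' share was 16.92% at 1000 bp, 22.12% at 2000 bp, 10.87% when a summit served its nearest TSS only and 15.2% when any overlap with the window counted. Among regions above the list's median signal, 7 members were bound, 5 clustered and 2 single, beside 8.109%, with a median signal of 347.3. In the pooled relaxed list 20 were bound, 13 clustered and 7 single, beside 35.16%, at −141.5 bp and a signal of 134.5. Without 1 library, by the top regions of the other, the other genes' share ranged from 12.78% to 15.2% and the median position from −270 to −229 bp. The bound count was 11 without either replicate, and signals were not recomputed because each library has its own scale. The changes with window and list follow from counting more or fewer summits, and the cause of the rest was not tested. A cluster gap of 5 kb moved Tsp genes between classes, giving 7 clustered and 5 single bound members, and 50 kb changed neither count. Adding lbm gave 13 bound of 35. Adding all genes with a Tsp synonym, an alternative chosen after seeing the data, gave 13 of 37, and asking for top regions in both libraries, also chosen after seeing the data, gave 8 beside 10% of all protein-coding genes, which lies at the limit of 1.5 times. No paired analysis was possible because there is 1 group. The lists give no read counts, so depth is unknown, and a gene without a region is not shown to be free of binding.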

Other observations

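Of the 9 reproducible summits in the 42E cluster, 2 lay outside the members' promoters. The first was in an intron of Tsp42Eg, 2317 bp downstream of its TSS, with a signal of 168.7 (rank 3445). The other lay 324 bp upstream of lbm, or late bloomer, with a signal of 187 (rank 2941). This tetraspanin gene of neuromuscular synapse formation stands between Tsp42El and Tsp42En and carries Tsp42Em as a synonym. Its summit position, like those of its bound neighbours, was upstream of the TSS. The interval also holds CG30159, CG30160, CG43646, CG43647, CG33914 and Pgant3, of which CG30159 was bound, through the summit it shares with Tsp42Ea. The pooled relaxed list placed 36 summits in the same 73.4 kb. That list holds 30000 regions, and no density for the arm is set beside the 36, so the count alone shows no excess.

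Tetraspanin genes under other symbols were looked up by their synonyms. CG31600, with the synonym Tsp40A, was unbound, with the nearest reproducible summit 47910 bp away. TM4SF, with the synonym Tsp60A, was also unbound, with the nearest summit 4517 bp upstream.

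The region at the Tsp3A promoter was in the replicate 3 list alone, at rank 1139. Of the top 5085 regions of replicate 3, 200 (3.93%) overlapped no region of the pooled list, and of those of replicate 1, 50 (0.983%) overlapped none. What sets such regions apart was not tested, and whether the lists were filtered differently is not known here.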
